A study of Homo sapiens with 4 samples.

Results

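Loci that end their transcripts in at least 4 poly(A) regions numbered 806 of the 17963 loci in the table, and they held 3643 of its 31081 regions as kept ones. They were chosen by their measured reads. Regions of a strand were joined into a locus where one started 5000 bases or less beyond the end of the previous one. A region was kept with 10 or more reads, summed over libraries, that were also 5% or more of its locus, and a locus entered with 4 or more kept regions holding 100 or more reads. The number of regions and the pooled shares are therefore descriptions and carry no test. The 4 libraries are replicates of a single group: DICER(ex5) cells, which are HCT116 human colon cancer cells with a hypomorphic DICER allele, untreated. This line is the only model, with no parental cells beside it. The series describes the replicates as biological, but gives no culture or day for any of them, so the spread between them may be partly technical.

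A pre-mRNA is cut downstream of a poly(A) signal by the cleavage and polyadenylation machinery, and a poly(A) polymerase then adds the tail. Many genes hold several such sites, and the choice among them is called alternative polyadenylation. Sites in tandem within a last exon change the length of the 3' untranslated region, and with it the microRNA and protein binding sites that the mRNA carries, while sites in introns or in other last exons can change the protein. Dicer makes mature microRNAs, which act mostly through 3' untranslated regions. Sequencing of poly(A) sites reads the last bases before the tail, so each region marks where transcripts ended. Oligo(dT) priming can also start on A-rich stretches inside a transcript. Neither a genome nor an annotation of hg19, the build of the positions, was used here, so no gene is named, internal priming was not tested, and a locus may join the ends of neighbouring genes.

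The 806 loci held 972940 reads, 5.70% of the 17073064 in the table. Their share was 5.62%, 5.63%, 5.76% and 5.76% in libraries 1 to 4, whose totals lay between 2163977 reads (library 2) and 5713530 (library 3). The median locus had 765.5 kept reads, of which 231, 96, 247 and 174.5 is the median in each library. Library 2 is thus the least precise, with as few as 9 reads at a locus. The libraries also fell into 2 pairs. The chi-square of kept regions by library, per degree of freedom and at the same depth, was 1.27 between libraries 1 and 2 and 1.11 between 3 and 4, where sampling alone gives 1, and 3.40 to 4.79 in the other 4 pairs. No label names a batch. Values per library are given over the 384 loci (47.6%) with 100 or more kept reads in each.

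Most of the loci had just enough regions to enter. There were 522 with 4 regions, 186 with 5, 67 with 6, 26 with 7, 4 with 8 and 1 with 9. A further 705 regions in 304 of the loci stayed under the minimum, and the richest locus held 16 regions of any kind. Many loci lay near the edge of the rule. The weakest kept region had 5% to under 5.5% of the locus at 61 of the 522 loci with 4 regions, and at 64 of the 1293 loci with exactly 3 the next region had 4.5% to under 5%. A minimum of 6% would have left fewer than 4 regions at 126 of the 806.

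Multi-region loci made up a larger share of moderately read loci than of rarely or very deeply read ones. They were 2.03% of loci with 100 to under 300 kept reads (69 of 3406), and 11.2% of those with 300 to under 1000 (448 of 4016; Wilson interval 10.2% to 12.2%). The share was 9.77% from 1000 to under 3000 reads (246 of 2519), 3.91% from 3000 to under 10000 (37 of 946) and 2.82% at 10000 or more (6 of 213; Wilson interval 1.30% to 6.01%). The minimum of 10 reads per region lowers the share in the first class. Each strand had 403 of the loci. Of all loci with several kept regions and 100 or more kept reads, 15.9% had at least 4 (806 of 5070). By chromosome this share ran from 6.80% on chromosome 22 (7 of 103) and 6.98% on chromosome 19 (15 of 215) to 20.3% on chromosome 2 (75 of 369). Chromosome X was also low, with 8.09% (11 of 136). These shares are descriptions over loci and were not tested.

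Usage was spread over the regions but seldom equal. Evenness was measured as the Shannon entropy of the shares divided by its highest possible value, so that 1 means equal use. Its median over the 806 loci was 0.861 (quartiles 0.781 and 0.915). The effective number of regions, that is, how many equally used regions would have the same entropy, was 3.47 at the median. The strongest region took a median of 46.2% of the kept reads and the next one 23.6%. A single region held over 50% at 322 loci (40.0%). The strongest had at least 2 times the reads of the next at 361 loci (44.8%) and led by less than 1.25 times at 177 (22.0%). Median evenness was 0.787 at the 1293 loci with 3 regions and 0.724 at the 2971 with 2. The 5% minimum bounds evenness more tightly as regions are added, so these medians are set side by side without a test.

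At loci with 4 regions the median shares by rank were 49.7%, 25.0%, 14.0% and 8.50%. With 5 regions they were 42.9%, 23.1%, 14.1%, 9.69% and 6.72%. The steps were large at the top and small near the 5% minimum. With 6 regions the strongest took 34.8% and the weakest 6.60%, and with 7 they took 33.5% and 6.07%. Effective numbers were 3.23, 4.00, 5.02 and 5.84 for 4 to 7 regions. The strongest regions were slightly wider than the other kept ones, with medians of 35 and 30 bases, and 17 of the 3643 kept regions were 5 bases wide or less.

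**Figure D1:**
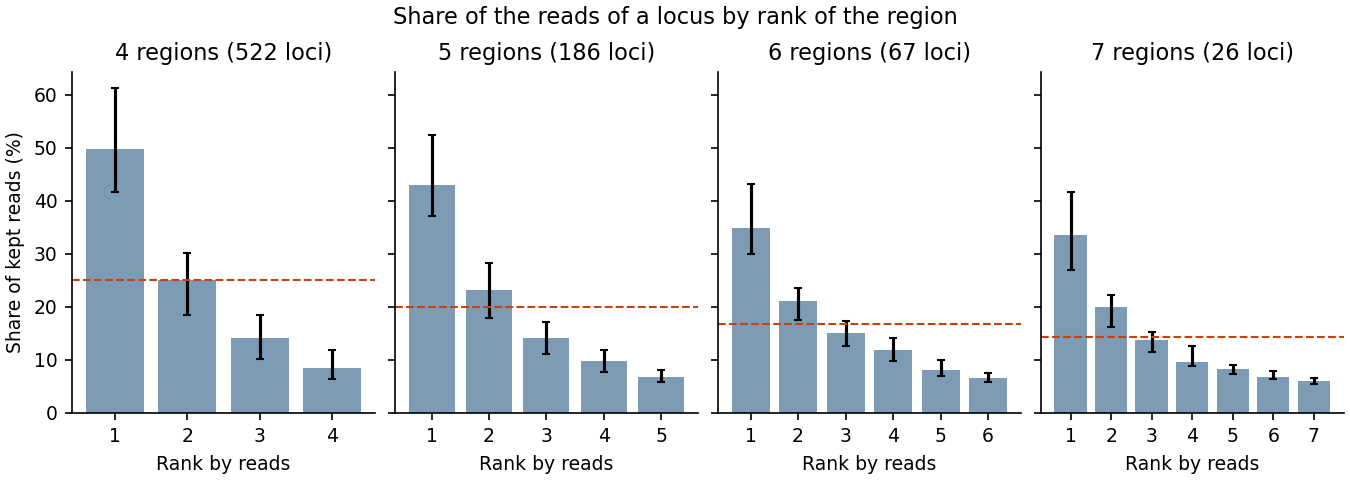
Median share of the kept reads (%) against the rank of a region by reads, for loci with 4, 5, 6 and 7 kept regions; whiskers are quartiles over loci and the dashed line marks an equal division. At loci with 4 regions the first rank stands at 49.7% and the last at 8.50%.

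Few loci came close to equal use. The most even of those with 100 or more reads in every library was 92660517 to 92668317 on chromosome 10 (plus strand), where 5 regions shared 879 reads with a pooled evenness of 0.999. Evenness was 0.958, 0.991, 0.994 and 0.958 in libraries 1 to 4. The Fisher test described further on called no pair of libraries there. It compared only the strongest region with the others, so differences at the outer regions were not tested by themselves. The most 5' region of the locus took 31.5%, 22.6%, 19.0% and 7.39%, and the most 3' one 8.81%, 14.3%, 25.8% and 26.6%. The region that led in the sum, the next to last, took 20.0%, 23.3%, 18.5% and 24.6%. The outer regions thus ran in opposite orders over the libraries while every library stayed near even.

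Other loci came next. At 37688502 to 37690804 on chromosome 17 (plus strand) the strongest of 4 regions, the most 5' one, took 31.1%, 30.4%, 36.8% and 35.6%, and the others averaged 21.1% ± 1.93, 20.5% ± 1.04 and 24.9% ± 2.27 (SD, n = 4). A similar profile was found at 170886194 to 170890890 on chromosome 6 (minus strand), with 28.3% ± 0.920, 20.4% ± 2.99, 17.9% ± 1.94 and 33.3% ± 5.25 from the most 5' to the most 3' region (SD, n = 4). The 5 regions at 110333258 to 110334224 on chromosome 11 (plus strand) stood within 929 bases and averaged 14.7%, 22.2%, 22.7%, 27.6% and 12.8%. The most 3' of 4 regions at 101471595 to 101474142 on chromosome 10 (minus strand) took 12.5% and 8.63% in libraries 1 and 2 but 44.8% and 40.6% in the other two. Evenness there was 0.948, 0.912, 0.930 and 0.944 in libraries 1 to 4 and 0.983 in the sum.

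At the other extreme a single region dominated and the rest lay just above the minimum. Evenness was lowest, at 0.475, at 52742458 to 52745621 on chromosome 3 (minus strand). The region after the most 5' one took 81.4%, 78.6%, 83.6% and 85.3% of the reads there (82.2% ± 2.89, SD, n = 4), and each of the remaining 3 averaged between 5.69% and 6.31%. The most 3' region led at 123463977 to 123467468 on chromosome 12 (plus strand), with 76.9%, 75.7%, 82.1% and 80.2%, and likewise at 78461590 to 78462900 on chromosome 15 (plus strand), with 77.4%, 75.5%, 78.1% and 79.9%. An inner region led at 76228893 to 76229366 on chromosome 1 (plus strand), with 85.5%, 82.8%, 74.3% and 73.7%, and at 134844529 to 134853718 on chromosome 7 (minus strand), with 82.9%, 84.4%, 74.2% and 74.9%. Dominance was therefore found both at the last region and inside the row. Over all 806 loci evenness was under 0.6 at 21 (2.61%) and 0.9 or more at 256 (31.8%). These shares were 18.5% and 24.0% at loci with 3 regions, and 35.7% and 28.0% at loci with 2. The 5% minimum bounds them too, and they were not tested.

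The strongest region could lie at any position. It was the most 5' kept region at 159 loci (19.7%), the most 3' one at 231 (28.7%) and an inner one at 416 (51.6%). Equal placement over the regions of each locus would give 22.7%, 22.7% and 54.5%. At the 522 loci with 4 regions the last led at 173 (33.1%), against 109 for the first, 110 for the second and 130 for the third, where equal placement gives 25%. With 5 regions the last led at 44 of 186 loci (23.7%, equal placement 20%), and with 6 at 8 of 67 (11.9%, equal placement 16.7%). With 7 it led at 6 of 26 (23.1%, equal placement 14.3%). The last region was thus above equal placement at loci with 4, 5 and 7 regions and below it at loci with 6. Median shares sloped towards the 3' end at loci with 4, with 16.7%, 17.7%, 19.0% and 23.2% from the most 5' to the most 3' region, and from 11.9% to 16.4% between the ends of loci with 5. With 6 regions the medians were 10.3% at the first and 12.7% at the last, and the last lay below every inner position. With 7 regions they were 10.04% at the first and 9.19% at the last. The slope thus did not reach the last region at loci with 6, and the ends stood in the reverse order at loci with 7. With regions joined within 1000 bases the last region led at 24.3% of 395 loci, where equal placement gives 23.1%, so most of its lead was seen only with the wider joining. These positions come from the reads that chose the loci and were not tested.

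**Figure D2:**
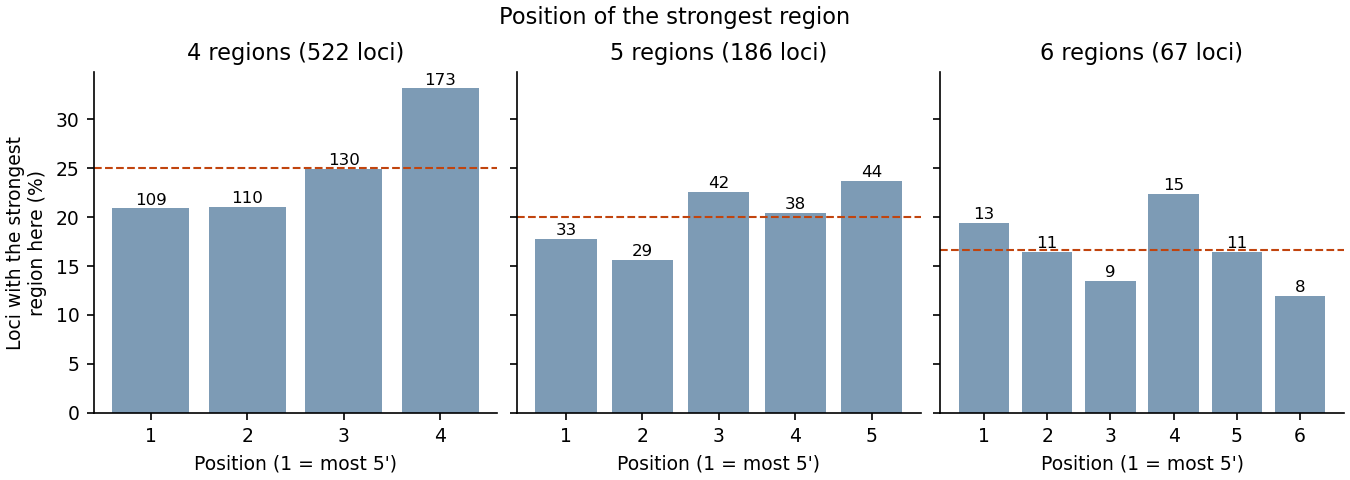
Percent of loci whose strongest region lies at each position, counted from the most 5' kept region, for loci with 4, 5 and 6 regions; numbers above bars are loci and the dashed line is an equal division. At loci with 4 regions the last position leads with 173 of 522.

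The region next in strength was a neighbour of the strongest about as often as equal placement would give. It lay directly next to it at 357 loci (44.3%, equal placement 45.5%), 5' of it at 442 (54.8%) and 3' of it at 364 (45.2%). The median distance between their ends was 1220 bases. Within 100 bases there were 51 such pairs (6.33%), and 450 (55.8%) were over 1000 bases apart. At most loci the strongest region and the next were thus over 1000 bases apart. These distances were not compared with those between other regions of the same loci.

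Neighbouring 3' ends lay a median of 525 bases apart over the 2837 steps within the 806 loci (quartiles 185 and 1384), with 621.5 bases at loci with 3 regions and 800 at loci with 2. More regions in a joined stretch leave shorter steps, so this order is partly set by the rule. Steps of up to 100 bases made up 13.4% (379). A pair of ends within 100 bases was present at 311 loci (38.6%), and after merging such ends 610 of the 806 still had 4 or more regions. At loci with 4 regions the last step was the longest, with a median of 769 bases against 513 for the first and 511.5 for the second. Spacing was uneven: a single step covered over 50% of the span at 422 of these 522 loci (80.8%).

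From the first end to the last the loci spanned a median of 3112 bases (quartiles 1769.5 and 4743). The span was up to 1000 bases at 71 loci, over 5000 at 180 and over 10000 at 14. Median evenness was 0.885 up to 1000 bases, 0.846 to 3000, 0.868 to 5000 and 0.870 beyond. The most 3' region was the strongest at 26.8%, 28.1%, 26.4% and 33.3% of the loci in the same order, where equal placement gives 24.0%, 23.2%, 22.5% and 21.7%. The most 5' region was the strongest at 23.9%, 19.5%, 20.7% and 17.2%. The most 3' region thus stood furthest above equal placement, and the most 5' furthest below it, at the widest loci. Ends of the opposite strand lay inside 51 of the 806 loci (6.33%), beside 6.50% of loci with 3 regions (84 of 1293) and 5.72% of loci with 2 (170 of 2971), whose median spans are 1856 and 800 bases. At like spans the share was lower than at loci with 3 up to 1000 bases (2.82% against 4.90%), from 3000 to 5000 (6.20% against 7.44%) and over 5000 (8.33% against 12.8%), and 6.07% against 5.82% from 1000 to 3000. These shares rest on 2 to 33 loci each and were not tested.

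**Figure D3:**
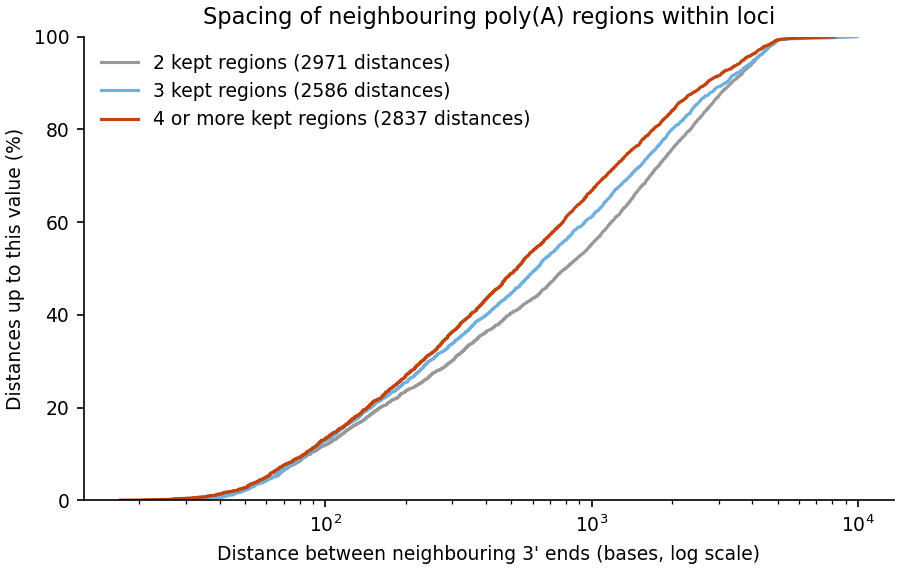
Cumulative percent of the distances between neighbouring kept 3' ends (bases, log scale) within loci of 2, 3 and 4 or more kept regions. The line of the loci with 4 or more regions has its median at 525 bases, to the left of 621.5 and 800.

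Among well-read loci the tightest was 30552508 to 30552800 on chromosome 17 (plus strand), with 4 ends in 262 bases. The next to last of them took 67.8%, 61.5%, 54.2% and 56.4% in libraries 1 to 4. The 4 ends at 44100941 to 44101342 on chromosome 7 (plus strand) spanned 299 bases, and usage climbed along them, with 10.5% ± 0.984, 19.5% ± 1.28, 34.3% ± 3.09 and 35.8% ± 2.02 (SD, n = 4). The last pair, 68 bases apart, overlapped in their values. Close ends elsewhere did shift between libraries. Within the 332 bases at 1694447 to 1694802 on chromosome 4 (minus strand), the next to last region took 29.3% and 38.0% in libraries 1 and 2 but 10.4% and 13.5% in the other two. The first pair of ends at 57049565 to 57050036 on chromosome 6 (plus strand), 64 bases apart, took 33.1% ± 2.53 and 47.5% ± 4.67 (SD, n = 4), so that most of that locus ended in one small stretch.

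Among loci with 100 or more reads in every library, the widest was 34897160 to 34913994 on chromosome 5 (minus strand), with 6 regions over 16801 bases. The second from the 5' end took 54.6%, 39.2%, 48.6% and 51.2%, and the most 3' one 7.46%, 12.3%, 5.90% and 11.1%. Next in width among them was 129894917 to 129907314 on chromosome 10 (minus strand), where 6 regions shared 4283 reads. A step of 7606 bases set its most 5' region apart, with 6.52% ± 0.872, and the most 3' one led with 38.5%, 46.6%, 29.3% and 31.6%. At 7575019 to 7586952 on chromosome 6 (plus strand) the next to last of 4 took 61.6% and 58.1% in libraries 1 and 2 but 84.6% and 84.1% in the other two, while the most 5' region, 11777 bases away, took 20.2%, 23.6%, 3.96% and 2.58%. The locus at 53029253 to 53040302 on chromosome 17 (minus strand) spread 6 regions over 11018 bases, and its strongest took 25.3%, 30.5%, 35.0% and 30.3%. Of these 4 wide loci, 3 were led by an inner region.

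The locus with the most kept regions had 9, on chromosome 1 (plus strand), with ends from 214813839 to 214828658. It had 625 reads with an evenness of 0.982, and it lies outside the rule for named loci. The strongest region, next to last, took 15.2%, 16.4%, 21.2% and 27.8% in libraries 1 to 4. The most 3' one had 48, 30, 2 and 2 reads, or 15.2%, 17.5%, 2.35% and 3.70%. These shares rest on few reads in the last pair of libraries.

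Of the loci with 8 regions, the best read was 6615001 to 6619029 on chromosome 8 (plus strand). Its ends formed a group of 4 within 548 bases, single ends 1479 and 2131 bases from the first, and a pair at 3919 and 3969. The single end at 2131 bases took 22.4% and 20.4% in libraries 1 and 2 but 6.27% and 5.78% in the other two, and the leading most 5' region took 18.4%, 22.6%, 25.1% and 23.5%. At 114948902 to 114951436 on chromosome 5 (minus strand) the strongest of 8 regions took 27.4% ± 2.37 and the next 18.8% ± 3.65 (SD, n = 4). Both leaders were level at 89348549 to 89350873 on chromosome 16 (minus strand), with 25.4% ± 4.84 and 26.3% ± 5.04 (SD, n = 4) and 710 bases between them. Evenness of the summed reads at these 3 loci was 0.967, 0.937 and 0.910, and its median was 0.943 over the 4 loci with 8 regions.

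Loci with 7 regions, of median evenness 0.907, varied in their leaders. The strongest took 47.3%, 38.2%, 53.2% and 50.9% at 122523206 to 122525433 on chromosome 2 (plus strand), more than 3 times the next one in the sum, and 45.8%, 41.6%, 46.1% and 40.3% at 171509672 to 171519391 on chromosome 1 (plus strand), where it was the most 5' region. It took 36.3% ± 1.73 (SD, n = 4) at 80127038 to 80130219 on chromosome 13 (plus strand). A pair of leaders with 32.4% ± 3.79 and 28.3% ± 2.18 (SD, n = 4) was found at 156472617 to 156475881 on chromosome 7 (minus strand), and another with 27.2% ± 3.49 and 27.2% ± 2.05 at 73569939 to 73577611 on chromosome 14 (plus strand). The flattest of those shown was 31085989 to 31089059 on chromosome 14 (plus strand), whose strongest took 24.9%, 18.8%, 22.4% and 20.0%. The lead changed between libraries at 37286527 to 37291946 on chromosome 5 (minus strand). There the most 5' region took 23.5%, 40.3%, 5.04% and 4.26% and the next to last 33.8%, 19.4%, 42.1% and 36.4%, so that the first led in library 2 and the other in libraries 1, 3 and 4. At 55757098 to 55762053 on chromosome 17 (plus strand) the last 2 ends, 65 bases apart, differed in order between the pairs of libraries: the upstream one took 10.1%, 5.65%, 29.2% and 24.5% and the downstream one 34.0%, 39.5%, 14.6% and 17.3%.

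**Figure D4:**
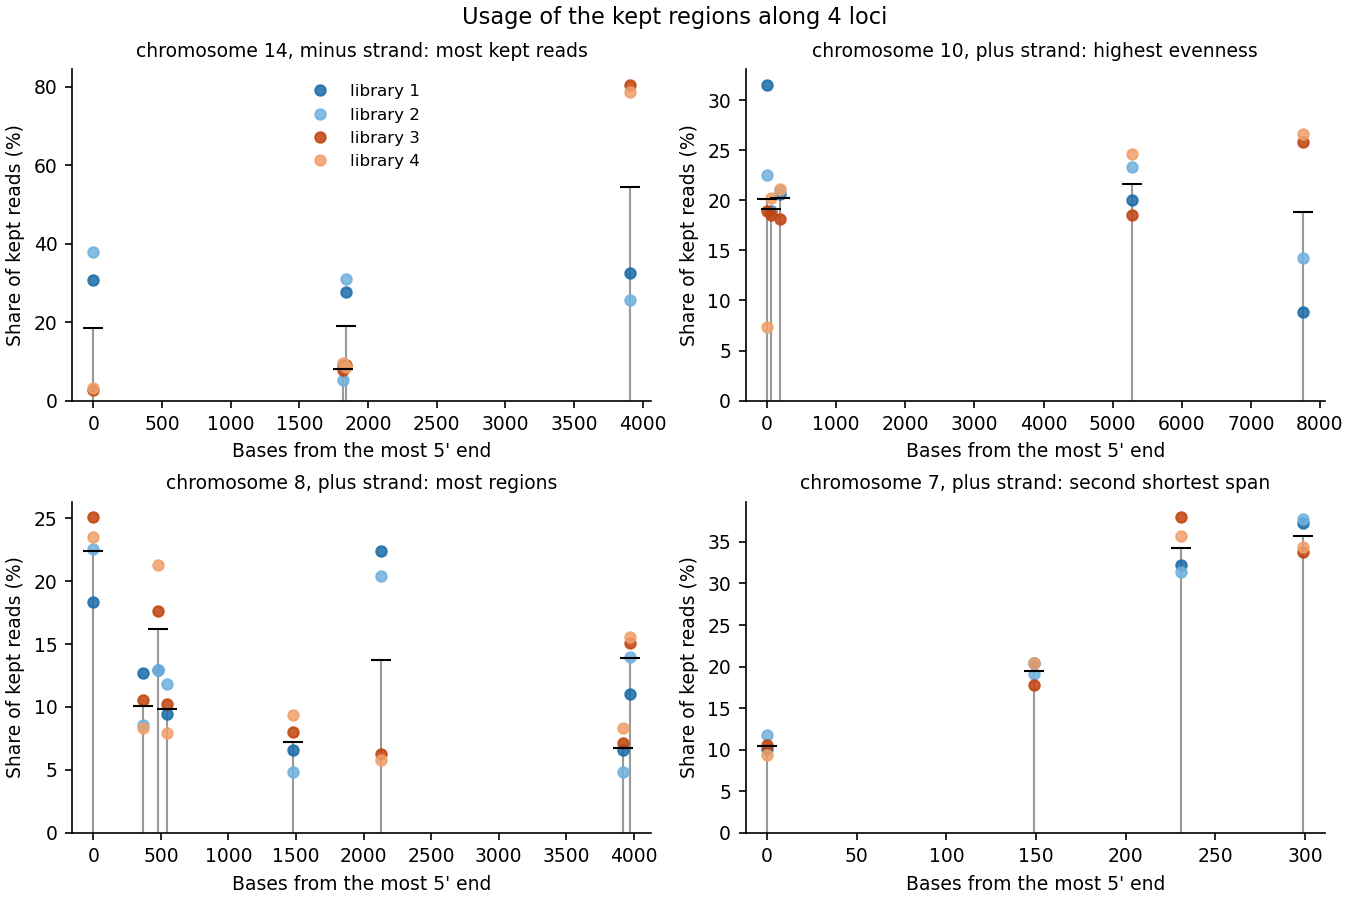
Share of the kept reads (%) of each region in libraries 1 to 4 (points) and their mean (bar on a line) against the distance in bases from the most 5' end, at 4 loci. At the locus with the most reads, on chromosome 14, libraries 3 and 4 stand at 80.4% and 78.8% at the last end and libraries 1 and 2 at 32.6% and 25.7%.

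Taken over loci, the profile was alike in all libraries. Over the 384 loci with 100 or more reads in each, median evenness was 0.841, 0.835, 0.826 and 0.829 in libraries 1 to 4, and the median share of the pooled strongest region 47.8%, 47.2%, 48.5% and 48.0% (47.9% ± 0.500, SD, n = 4). The most 3' region led at 25.3%, 26.0%, 25.5% and 24.0% of them, with a tie counted as no lead. The summed reads gave 28.7% over all 806 loci, which is another set and another measure. The summed share and equal placement at the 384 loci are not given here. With as many reads in each library, the most 3' region led at a mean of 44.2% of loci with 3 regions and 59.0% of loci with 2. Fewer regions raise this share by themselves. At least 4 regions reached 5% within the single library at 89.1%, 82.3%, 85.2% and 84.4%. The usage centre, the share-weighted mean position of the ends, lay at the median 48.5% ± 0.629 of the way from the first end to the last (SD, n = 4), beside 60.7% ± 0.922 at the 530 loci with 3 regions and 100 or more reads in each library, whose depth was not matched further.

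Single loci were less stable. The same region was the strongest in every library at 274 of the 384 loci (71.4%), 97 had 2 different leaders, 6 had 3 or 4, and 7 had a tie. The same held for 86.4% of loci with 3 regions (458 of 530) and 92.8% of those with 2 (1079 of 1163). More regions leave smaller leads, so these shares were not tested against each other. Between libraries 1 and 2 the leader was the same at 89.1% of the 384 loci and between 3 and 4 at 90.6%, but in the other 4 pairs at 77.1% to 82.3%.

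Each library was left out in turn, with the regions taken as deposited. Loci and leaders were then chosen from the other 3, and read in the one left out where it had 100 or more kept reads (385 to 732 loci). The leader was again the strongest at 85.7% ± 2.10 of the loci (SD, n = 4), with 92.7% ± 1.78 for loci with 3 regions and 96.5% ± 0.643 for loci with 2. Its median share was 48.2% ± 1.51 in the library left out and 47.5% ± 0.757 in those that chose it. Median evenness was 0.830 ± 0.0140 and 0.846 ± 0.00633. At least 4 regions reached 5% in the library left out at 80.4% ± 4.21 of the loci. Most of these loci thus had at least 4 such regions in a library not used to choose them. The deposited regions may themselves rest on reads of every library. The library paired with the one left out also stayed among those that chose.

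Whether the share of the strongest region differed between 2 libraries was tested at each locus by Fisher's exact test, two-sided, on reads thinned to the smallest library. Benjamini-Hochberg adjustment ran over all 5070 loci with several regions within a pair, and a locus was called at an adjusted p under 0.05. Such a call compares libraries, not conditions. Between libraries 1 and 2, 3 of the 806 loci were called (0.372%), where 0.375% of all loci tested were. Between 3 and 4, Fisher's exact test called 0 of them, where 0.0592% of all loci were called. Its unadjusted p was under 0.05 at 45 of the 806. The same held at 74 of the 1293 loci with 3 regions and 146 of the 2971 with 2. Both pairs thus gave next to no calls.

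The other pairs gave many. There were 98 calls between libraries 1 and 3 (12.2%, all loci 11.4%) and 81 between 1 and 4 (10.0%, all loci 9.68%). Library 2 gave 163 calls against library 3 (20.2%, all loci 17.8%) and 139 against library 4 (17.2%, all loci 15.7%). At least 1 pair was called at 209 of the 806 (25.9%, all loci 24.0%). Each share lay near that of all loci, which is no result about loci with 4 or more regions. On unthinned reads library 1 gave 219 calls against library 3 (27.2%, all loci 25.5%) and 172 against library 4 (21.3%, all loci 19.7%). Library 2 then gave 216 (26.8%, all loci 24.7%) and 182 (22.6%, all loci 20.4%). Within the pairs there were 6 between libraries 1 and 2 (0.744%, all loci 0.789%) and 1 between 3 and 4 (0.124%, all loci 0.276%). Calls were more frequent at deeper loci: between libraries 1 and 3 they made up 5.58% from 100 to under 500 kept reads (12 of 215), 10.6% to under 1000 (32 of 302), 13.4% to under 3000 (33 of 246) and 48.8% from there on (21 of 43). The share also rose at loci with 3 regions, with 7.52%, 8.42%, 17.6% and 42.6% in these classes, and at loci with 2, with 6.00%, 7.61%, 12.9% and 30.8%. The median difference at the 98 loci, on the thinned reads, was 24.6 percentage points. At the called loci with 3 and 2 regions it was 20.8 and 19.6. These loci were chosen by the test, which favours large differences. The part of duplicate reads in the calls was not tested.

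Shifts between libraries went both ways along the loci, but across the pairs more loci moved 3' than 5' towards libraries 3 and 4. From library 1 to library 3 the usage centre moved 3' at 234 of the 384 loci and 5' at 150, with a median of 28.1 bases and a median size of 99.3. The counts were 234 and 150 from library 1 to library 4 and 224 and 160 from library 2 to library 3. From library 2 to library 4 the counts were 232 and 152, with a median of 35.6 bases. Within the pairs they were 184 and 200 from library 1 to 2 and 199 and 185 from 3 to 4. Shifts over 500 bases occurred at 33 to 56 loci across the pairs and at 10 and 5 within them. These counts were not set beside those of other loci, so they are no result particular to loci with 4 or more regions. The counts across the pairs reuse the same libraries and were not tested.

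The locus with the most reads, 22825, also had the largest SD of the strongest share among loci with 100 or more reads in every library. It is 102547378 to 102551321 on chromosome 14 (minus strand), with 4 regions. The most 3' region took 32.6%, 25.7%, 80.4% and 78.8% in libraries 1 to 4, and the most 5' one, 3904 bases away, 30.7%, 38.0%, 2.63% and 3.13%. An inner region of 10 bases took 27.7%, 30.9%, 9.06% and 8.51%, and its neighbour 20 bases upstream 8.95%, 5.37%, 7.87% and 9.61%. The values of the first 3 of these do not overlap between the pairs of libraries, and those of the neighbour do. Fisher's exact test called the leader's share in 5 of the 6 pairs of libraries, between libraries 1 and 2 too but not between 3 and 4.

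The next best read loci had smaller differences in the leader's share. The most 3' of 4 regions took 67.1%, 67.4%, 71.9% and 70.6% at 179151704 to 179157959 on chromosome 5 (plus strand) and 67.7%, 72.4%, 62.4% and 65.0% at 10269890 to 10271576 on chromosome 2 (plus strand). In the latter the most 5' region took 2.26% and 0.925% in libraries 1 and 2 but 12.8% and 10.4% in the other two. At 49394596 to 49397065 on chromosome 3 (minus strand) the strongest region took 70.1%, 69.0%, 72.3% and 74.1%, the one 5' of it 22.6%, 23.9%, 9.21% and 12.0% and the most 3' one 1.22%, 0.945%, 12.0% and 7.72%, so that these minor regions differed in opposite directions. Fisher's exact test with Benjamini-Hochberg adjustment called the leader's share in 2 of the 6 pairs of libraries at the first of these 3 loci, in 3 at the next and in 2 at the last. At 73772499 to 73774376 on chromosome 17 (minus strand) library 2 stood lowest at the strongest region, with 53.1%, 41.1%, 55.6% and 57.5%. There the test called the 3 pairs that hold library 2, that with library 1 among them, and no other pair.

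The other loci with the largest spread were chosen for it, so their values are a description. The most 3' of 4 regions took 81.9%, 83.8%, 30.1% and 36.8% at 38397433 to 38398674 on chromosome 9 (plus strand), the reverse of the order on chromosome 14, and 59.2%, 64.7%, 15.4% and 21.4% at 138700885 to 138705413 on chromosome 5 (plus strand). The next to last of 4 took 75.3%, 71.1%, 38.5% and 34.1% at 120440476 to 120444124 on chromosome 10 (minus strand). Libraries 1 and 2 were the higher ones at all 3. In contrast, the next to last of 6 regions at 26242630 to 26253231 on chromosome 7 (plus strand) took 11.8%, 9.05%, 53.7% and 47.3%, and the most 5' one 34.4%, 44.4%, 2.11% and 2.69%. Libraries 1 and 2 did not overlap with 3 and 4 in the leader's share at any of these 4 loci or on chromosome 14.

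The loci with the smallest spread were likewise chosen for it. The most 5' of 4 regions took 54.1%, 53.1%, 53.3% and 52.7% at 107268863 to 107270389 on chromosome 4 (plus strand), and the next to last of 5 took 47.8%, 48.9%, 47.7% and 49.0% at 81268080 to 81271350 on chromosome 15 (minus strand). With 7 regions, the next to last took 44.4%, 44.2%, 44.5% and 42.8% at 19445325 to 19450926 on chromosome 18 (plus strand), although an inner one 5' of it took 9.79%, 6.98%, 16.8% and 24.3%. The second from the 5' end of 4 took 76.9% ± 0.867 at 128410176 to 128413487 on chromosome 7 (plus strand) and 70.7% ± 0.917 at 146050056 to 146050681 on chromosome 4 (plus strand) (SD, n = 4). None of the 5 was led by its most 3' region. The median SD of the strongest share over all 806 loci was 5.17 percentage points, and the highest 39.5.

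**Figure D5:**
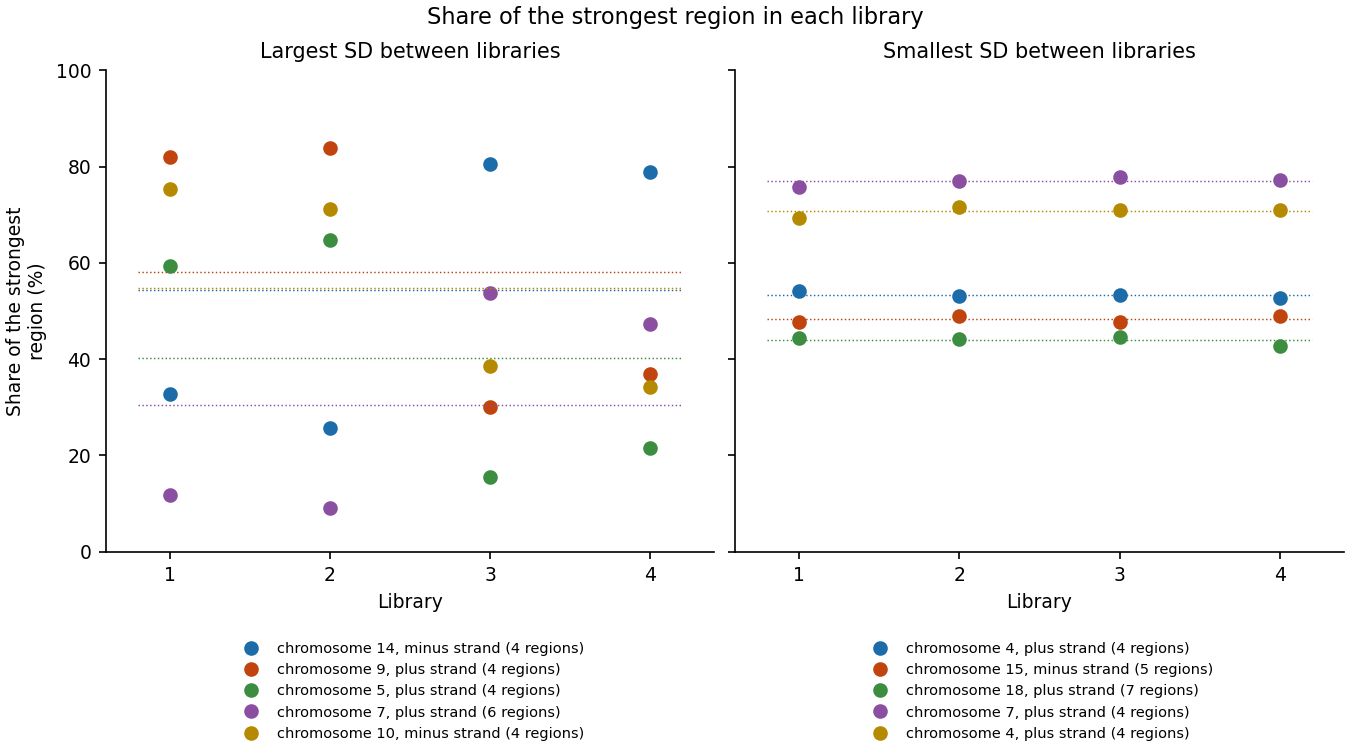
Share of the strongest region (%) in libraries 1 to 4 at the 5 loci with the largest SD between libraries (left) and the 5 with the smallest (right), among loci with 100 or more kept reads in every library; dotted lines are means over the libraries. On the left, libraries 1 and 2 stand apart from libraries 3 and 4 at each locus.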

How the data were processed

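The 4 libraries (replicates 1 to 4) of DICER(ex5) cells were profiled by poly(A) site sequencing. The deposited table gives, per the file headers, chromosome, start, end and strand of every region beside its count in each library, which the authors left without normalization. Alignment used Bowtie2 2.2.5 on hg19, per the submitters' processing notes, while the joining of reads into regions and any removal of duplicates are not given in the sources used here. Positions are printed as deposited. The 3' end of a region is its end on the plus strand and its start on the minus strand, and widths are end minus start plus 1.

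Loci, kept regions and shares were computed in Python 3.11.15 with numpy 2.4.6, pandas 2.3.3 and scipy 1.17.1. Shares are percentages of the reads in kept regions. Fisher's exact test was run on counts thinned without replacement to 2163977 reads per library and was checked on simulated data. It treats reads as independent molecules, so its calls also hold spread beyond sampling. Intervals are 95% Wilson intervals and cover counting only. The members, the locus rule and the alternatives were chosen with earlier results of these data known. Named loci are, among those with 100 or more kept reads in every library, 5 each with the most reads, highest and lowest evenness, shortest and longest span and largest and smallest SD of the strongest share, and those with 7 or 8 regions, of which the text gives a part. The locus with 9 regions lies outside this rule and was added after its values were seen. The planned search for poly(A) signals, A-rich flanks, gene names and cell type markers needed a genome or annotation of hg19 and was not run.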

Additional observations from a re-analysis of the deposited data

How the results depend on the processing

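No paired analysis was possible because the series has a single group. Without each library in turn the rule gave 761 to 821 loci, a median evenness of 0.857 to 0.863, a median strongest share of 45.4% to 46.7%, a median distance of 517 to 529 bases, and the most 3' region strongest at 28.3% to 29.1%. Fisher's exact test then called 3 of the loci between libraries 1 and 2, 95 to 100 between 1 and 3 and 76 to 84 between 1 and 4. It called 148 to 170 between 2 and 3, 128 to 131 between 2 and 4 and 0 between 3 and 4. No share over all loci was computed for these counts, so they are no result about loci with 4 or more regions. The number of loci depended on the rule: it was 395 and 591 when regions were joined within 1000 and 2000 bases, 930 within 10000, 1322 and 323 with a minimum share of 2% and 10%, 543 with a minimum of 50 reads, 796 without regions of 5 bases or fewer and 816 with libraries scaled to the same total. Joined within 1000 bases, 359 of the 806 overlapped a locus with 4 or more regions. Of the 53 loci under the rule for named loci, 29 then had a strongest share that moved by its SD between libraries or more. This held for 32 with a minimum share of 10%, 16 with ends within 100 bases merged and 12 joined within 2000 bases. In each other setting it held for 0 to 6. Median evenness was 0.765 and 0.934 and the median strongest share 53.4% and 40.2% with a minimum share of 2% and 10%. The most 3' region was the strongest at 24.3%, 27.2% and 27.4% of loci joined within 1000, 2000 and 10000 bases. Equal placement there gives 23.1%, 22.8% and 22.6%. The most 3' region led at 30.7% and 28.2% with a minimum share of 2% and 10%, where equal placement gives 21.6% and 24.5%. With a minimum of 50 reads it led at 26.7%, and with ends within 100 bases merged at 28.2% (equal placement 22.9% and 23.0%). With libraries scaled it led at 28.1% (equal placement 22.7%). Its lead over equal placement was thus wider with a minimum share of 2% than with 10%. The median distance was 283, 386.5 and 619 bases joined within 1000, 2000 and 10000 bases, 475 and 592 with a minimum share of 2% and 10%, and 657 with ends merged. On unthinned reads Fisher's exact test called 6, 219 and 172 of the loci between libraries 1 and 2, 1 and 3, and 1 and 4, where the thinned counts were 3, 98 and 81, and 1 between libraries 3 and 4. With the most 3' region in place of the strongest, it called 1 between libraries 3 and 4. Choosing the strongest region from the thinned libraries, an alternative added after seeing the data, gave 95 calls between libraries 1 and 3. No share over all loci was computed for either alternative choice of region. The shares of all loci on unthinned reads are given with the Fisher test above. Leaving out regions with A-rich flanks was not run, since no genome of the build was used. The cause of these differences was not tested.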
